A study of Oryza sativa with 18 samples.

Results

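ABA8OX1 (LOC9269675), RAB21 (LOC4350454) and LEA19 are 3 rice genes tied to the hormone abscisic acid, and their transcript levels in leaf sheath were followed while brown planthoppers, insects that suck phloem sap, fed on the plants. Their probe sets were found through the array's probe-to-gene annotation, which gave 1 probe set for ABA8OX1, 2 for RAB21 and 1 for LEA19, so 4 of 57381 probe sets and 3 of 17905 annotated genes. All 4 passed the filter on low values. In the gene table of the rice assembly used here for names and gene order, ABA8OX1 lies on chromosome 2, RAB21 on chromosome 11 and LEA19 on chromosome 5. The genes were chosen by their values on these same arrays: earlier results named ABA8OX1 and RAB21 for their 6 h change in NIL-Bph6-RNAi. The values that chose LEA19 are not fully known, so all its values are descriptions without a test.

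Abscisic acid is the plant hormone of drought and seed maturation. When it is present, its receptors block a group of protein phosphatases, which frees SnRK2 kinases to activate bZIP transcription factors that bind the promoters of dehydration genes. RAB21 is such a target and encodes a dehydrin, a hydrophilic protein that accumulates in water-stressed and abscisic acid-treated rice tissue. LEA19 encodes a late embryogenesis abundant protein, a class that accumulates in drying seeds and in stressed leaves. ABA8OX1 encodes a cytochrome P450 that hydroxylates abscisic acid, the first step of its main breakdown route.

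The study used 18 Affymetrix rice arrays, 3 labelled as biological replicates for each of 6 groups. NIL-Bph6, labelled resistant, is a near-isogenic line with Bph6, a gene for resistance to planthoppers, and NIL-Bph6-RNAi, by its name that line with an RNAi construct, is labelled susceptible. Each line was sampled without insects at 0 h, and after 6 h and 48 h of feeding, and the chamber-grown plants were about 3 weeks old. Some description and cultivar fields name other lines or times, and the groups follow the titles and source names. The promoter of the RNAi construct, the number of independent transformants and any pooling of plants are not stated in the labels. Insect-free plants of 6 h or 48 h were not analysed here, so the effect of feeding and anything else that changed between sampling times cannot be told apart. The targeted gene was not analysed here.

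Of 64 reporter probe sets on the array, 1 separated the lines completely, reading 11.85 to 13.15 log2 signal on 9 NIL-Bph6-RNAi arrays and 0.97 to 5.44 on 9 of NIL-Bph6, and 0 separated them the other way. For 17 of 18 arrays the best correlate belonged to the same group. The lowest mean correlation with other groups, 0.903, was that of NIL-Bph6-RNAi 48 h replicate 3. Green leaf markers were high throughout: 4 of the 5 on the array passed the filter, and their summed signal lay between 15.95 and 16.45 on the log2 scale. At 48 h 3 of these 4 were called lower in NIL-Bph6 (median change -0.40) and 1 in NIL-Bph6-RNAi (-0.23), beside 7.48% and 16.6% of all probe sets. The part of these markers in the 48 h results was not tested. Of 7 seed storage protein genes 2 passed, with a sum between 8.96 and 9.89, and the single anther gene did not pass. RNA quality was read from the 3' minus 5' signal of control probe sets, whose mean before feeding was 1.78 ± 0.42 (SD, n = 3) for NIL-Bph6 and 2.39 ± 0.19 for NIL-Bph6-RNAi, and from 1.99 to 2.16 in the fed groups. The lowest array was NIL-Bph6 0 h replicate 2, at 1.40. NIL-Bph6 6 h replicate 1 had the highest median log2 signal of all arrays, 6.02, and the fewest probe sets at 0, 270. Results below lean on both arrays, and the part of array quality in them was not tested.

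ABA8OX1 was low before feeding and high after it in both lines. In NIL-Bph6 its log2 MAS5 signal was 8.14, 8.39 and 8.45 at 0 h, 11.39, 10.73 and 10.98 at 6 h, and 10.34, 11.56 and 11.53 at 48 h. In NIL-Bph6-RNAi it was 8.0, 8.05 and 8.15 at 0 h, 10.84, 11.18 and 10.98 at 6 h, and 12.22, 11.84 and 11.68 at 48 h. Every fed array lay above every unfed array of the same line. Within NIL-Bph6 the 6 h and 48 h arrays overlapped, replicate 1 at 48 h being the lowest of all 12 fed arrays. Within NIL-Bph6-RNAi all 48 h arrays lay above all 6 h arrays, and above all NIL-Bph6 arrays at 48 h. The share of all probe sets whose groups separate in these ways was not computed. Separations of groups, here and for the genes below, are therefore descriptions that do not set a gene apart.

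**Figure D1:**
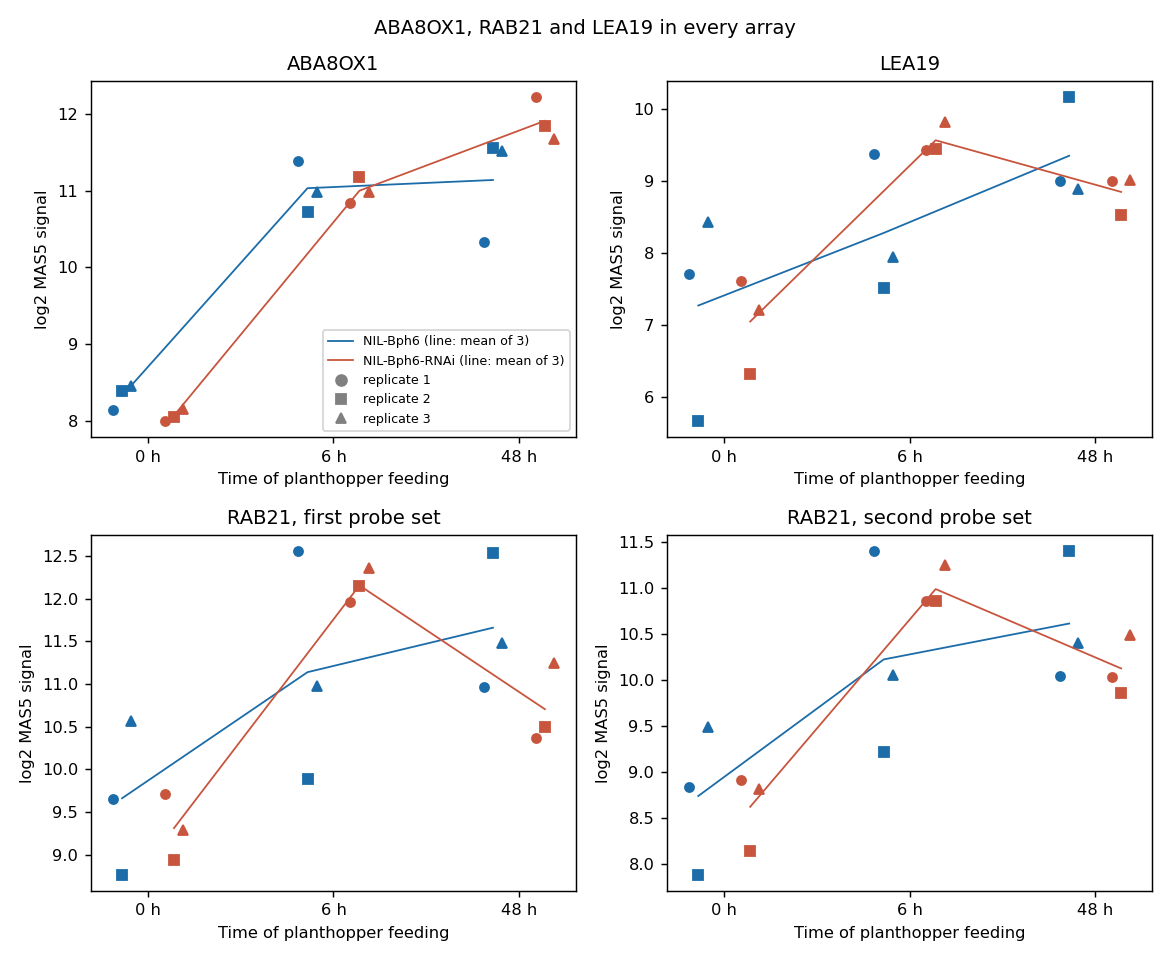
The 4 probe sets of ABA8OX1, LEA19 and RAB21 on all 18 arrays, as log2 MAS5 signal (vertical axis) by hours of feeding (horizontal axis). Points are arrays, symbols replicate numbers without order, colours lines, and lines join the means of 3. ABA8OX1 separates fed from unfed arrays in both lines. The RAB21 and LEA19 points of NIL-Bph6 spread widely within the 0 h and 6 h groups, from 9.88 to 12.56 at 6 h for the first RAB21 probe set.

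In NIL-Bph6, ABA8OX1 rose between 0 h and 6 h by 2.71 ± 0.26 on the log2 scale (± SE of the fit, n = 3 per group), a 6.55-fold higher signal with a limma adjusted p of 6.09e-05. The 2 means compared share no array with the NIL-Bph6-RNAi contrast that drew attention to the gene. Their SE and p do use the spread within all 6 groups, those of NIL-Bph6-RNAi included. Over 15 alternatives to the processing the adjusted p lay between 2.97e-05 and 0.0018. Among 32732 probe sets tested, 3.52% were called higher and 1.6% lower at 6 h in this line, a call being an adjusted p under 0.05, and 0.324% had a larger rise than ABA8OX1. Leaf sheath holds several cell types, and more cells of a type cannot be told apart from more RNA per cell.

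The other changes of ABA8OX1 are given as descriptions. Its level was higher at 48 h than at 0 h by 2.82 ± 0.26 in NIL-Bph6, or 7.05-fold. In NIL-Bph6-RNAi it was higher by 2.94 ± 0.26 at 6 h, or 7.65-fold, and by 3.85 ± 0.26 at 48 h, or 14.4-fold. The 6 h and 48 h changes of a line share its 0 h arrays. Between 6 h and 48 h its level differed by 0.11 ± 0.26 in NIL-Bph6 and by 0.91 ± 0.26 in NIL-Bph6-RNAi. Of all probe sets tested, 8.18% were called higher and 7.48% lower at 48 h in NIL-Bph6. In NIL-Bph6-RNAi, 3.7% were called higher and 1.61% lower at 6 h, and 16.7% higher and 16.6% lower at 48 h.

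Between the lines, ABA8OX1 differed by 0.26 ± 0.26 at 0 h and by 0.03 ± 0.26 at 6 h, NIL-Bph6 minus NIL-Bph6-RNAi, with overlapping arrays. The 6 h value lay between -0.15 (without NIL-Bph6 6 h replicate 1) and 0.19 (without 6 h replicate 2). At 48 h the difference was -0.77 ± 0.26, and -0.37 without NIL-Bph6 48 h replicate 1. Without that array the difference between lines in the change from 0 h to 48 h, -1.03 ± 0.37, was -0.63. Ordered by mean level, the groups ran NIL-Bph6-RNAi at 0 h (8.07 ± 0.08, SD, n = 3), NIL-Bph6 at 0 h (8.32 ± 0.16), NIL-Bph6-RNAi at 6 h (arrays from 10.84 to 11.18, SD 0.17), NIL-Bph6 at 6 h (11.03 ± 0.34), NIL-Bph6 at 48 h (11.14 ± 0.70) and NIL-Bph6-RNAi at 48 h (11.91 ± 0.28). Neighbours in that order overlapped except at 2 steps, from the 0 h groups to the fed groups and from NIL-Bph6 at 48 h to NIL-Bph6-RNAi at 48 h. Of all probe sets tested, 1.41% were called between the lines at 0 h, 0.862% at 6 h and 13.6% at 48 h. A difference of responses was called for 0.00611% at 6 h and 11.2% at 48 h.

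RAB21 was higher after feeding in NIL-Bph6-RNAi, with its top at 6 h, and spread widely in NIL-Bph6. The first of its probe sets read 9.71, 8.94 and 9.30 at 0 h in NIL-Bph6-RNAi, 11.96, 12.15 and 12.36 at 6 h, and 10.37, 10.50 and 11.25 at 48 h. All 6 h arrays of that line lay above all its 48 h arrays, which in turn lay above all its 0 h arrays. In NIL-Bph6 it read 9.65, 8.77 and 10.57 at 0 h, 12.56, 9.88 and 10.98 at 6 h, and 10.97, 12.53 and 11.48 at 48 h. Here the 6 h arrays overlapped both the 0 h and the 48 h arrays, while every 48 h array lay above every 0 h array.

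The 6 h rise of RAB21 in NIL-Bph6 did not pass the test. The difference was 1.48 ± 0.55 on the log2 scale for the first probe set (2.78-fold, limma adjusted p = 0.136) and 1.48 ± 0.48 for the second (2.80-fold, limma adjusted p = 0.084). Without NIL-Bph6 6 h replicate 2, the lowest array of that group, it was 2.10 with a limma adjusted p of 0.0437 and 1.99 with 0.0333. Over all 15 alternatives the adjusted p lay between 0.0437 and 0.449 for the first probe set and between 0.0333 and 0.309 for the second. The difference itself ranged from 0.77 to 2.10 and from 0.89 to 1.99 when single arrays were left out. It was 0.77 for the first probe set without NIL-Bph6 6 h replicate 1, the highest array of the group. Both SEs pool the spread within all 6 groups. The SDs of NIL-Bph6 at 0 h and 6 h were 0.90 and 1.35 for the first probe set, and 0.81 and 1.10 for the second. These groups spread more than the pooled SE reflects.

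In NIL-Bph6-RNAi the first RAB21 probe set was higher by 2.84 ± 0.55 at 6 h (7.17-fold) and by 1.39 ± 0.55 at 48 h (2.63-fold), both against 0 h. Its 48 h level was below its 6 h level, with a log2 change of -1.45 ± 0.55. In NIL-Bph6 it was higher at 48 h than at 0 h by 2.0 ± 0.55 (3.99-fold), and at 48 h than at 6 h by 0.52 ± 0.55. The lines overlapped at every time, and each difference between them moved when single arrays were left out. NIL-Bph6 minus NIL-Bph6-RNAi was 0.35 at 0 h, and between -0.10 (without NIL-Bph6 0 h replicate 3) and 0.80 (without 0 h replicate 2) for RAB21. At 6 h it was -1.02, and between -1.73 (without NIL-Bph6 6 h replicate 1) and -0.39 (without 6 h replicate 2), and at 48 h it was 0.95, and 0.52 without NIL-Bph6 48 h replicate 2. The change to 6 h differed between lines by -1.37 ± 0.78, a description, with -2.08 and -0.74 on leaving out the same 6 h arrays. The change to 48 h differed by 0.60 ± 0.78, with 0.16 on leaving out the second array of NIL-Bph6 at 0 h and 1.06 on leaving out the third. It was 0.95 when the first array of that line at 48 h was dropped, and 0.17 when the second was. By mean level the order was NIL-Bph6-RNAi at 0 h (9.31 ± 0.39, SD, n = 3), NIL-Bph6 at 0 h (9.66 ± 0.90), NIL-Bph6-RNAi at 48 h (10.71 ± 0.48), NIL-Bph6 at 6 h (11.14 ± 1.35), NIL-Bph6 at 48 h (11.66 ± 0.80) and NIL-Bph6-RNAi at 6 h (12.16 ± 0.20), and all neighbours overlapped.

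The second RAB21 probe set read lower than the first on every array, by 0.34 to 1.29 with a median of 0.90, and the cause was not tested. Its values in NIL-Bph6 were 8.84, 7.89 and 9.49 at 0 h, 11.40, 9.22 and 10.05 at 6 h, and 10.04, 11.40 and 10.40 at 48 h. In NIL-Bph6-RNAi they were 8.91, 8.14 and 8.82 at 0 h, 10.86, 10.86 and 11.25 at 6 h, and 10.03, 9.86 and 10.50 at 48 h. Both probe sets thus put the same groups apart or in overlap in each of the 9 pairs of groups compared within a line or within a time. The change in NIL-Bph6-RNAi was 2.37 ± 0.48 at 6 h and 1.5 ± 0.48 at 48 h, and in NIL-Bph6 1.87 ± 0.48 at 48 h. For the second probe set, NIL-Bph6 minus NIL-Bph6-RNAi was 0.12 at 0 h, -0.76 at 6 h and 0.49 at 48 h. Leaving out single arrays gave -0.26 to 0.54, -1.35 to -0.26 and 0.09 to 0.77. The change of the second probe set to 6 h differed between the lines by -0.88, and by -1.47 to -0.38 on leaving out single arrays, a description. Its change to 48 h differed between the lines by 0.37, but by -0.06 without NIL-Bph6 0 h replicate 2 and -0.02 without 48 h replicate 2.

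LEA19, like RAB21, was highest at 6 h in NIL-Bph6-RNAi. It read 7.61, 6.33 and 7.21 at 0 h in that line, 9.43, 9.44 and 9.83 at 6 h, and 9.0, 8.53 and 9.02 at 48 h. The 6 h arrays were all above the 48 h arrays, and these all above the 0 h arrays. In NIL-Bph6 it read 7.72, 5.67 and 8.43 at 0 h, 9.38, 7.52 and 7.94 at 6 h, and 9.0, 10.16 and 8.89 at 48 h. The 0 h and 6 h arrays of this line overlapped, the 48 h arrays were all above the 0 h arrays, and all 6 h arrays lay below the 6 h arrays of NIL-Bph6-RNAi. How many of all probe sets separate in these ways was not computed, so these separations do not set LEA19 apart.

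The LEA19 change from 0 h was 1.01 ± 0.59 at 6 h (2.01-fold) and 2.08 ± 0.59 at 48 h (4.23-fold) in NIL-Bph6. In NIL-Bph6-RNAi it was 2.52 ± 0.59 at 6 h (5.72-fold) and 1.80 ± 0.59 at 48 h (3.48-fold). The values of NIL-Bph6 lean on NIL-Bph6 0 h replicate 2, whose 5.67 was the lowest value of the gene. Its 3' minus 5' control signal was also the lowest of all arrays. Without that array the LEA19 change was 0.21 at 6 h and 1.28 at 48 h. The 6 h change was 1.59 without 0 h replicate 3 and 0.46 without 6 h replicate 1. The change to 6 h differed between the lines by -1.51 ± 0.83, a description, and by -2.31 without 0 h replicate 2 and -0.93 without 0 h replicate 3 of NIL-Bph6. Mean levels ran from 7.05 ± 0.66 (SD, n = 3) in NIL-Bph6-RNAi at 0 h through 7.27 ± 1.43 in NIL-Bph6 at 0 h, 8.28 ± 0.97 in NIL-Bph6 at 6 h, 8.85 ± 0.27 in NIL-Bph6-RNAi at 48 h and 9.35 ± 0.71 in NIL-Bph6 at 48 h to 9.57 ± 0.23 in NIL-Bph6-RNAi at 6 h. All neighbours in that order overlapped. The SE of 0.59 pools the spread within all 6 groups, whose SDs ran from 0.23 to 1.43. NIL-Bph6 at 0 h and 6 h spread more than this SE reflects.

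**Figure D2:**
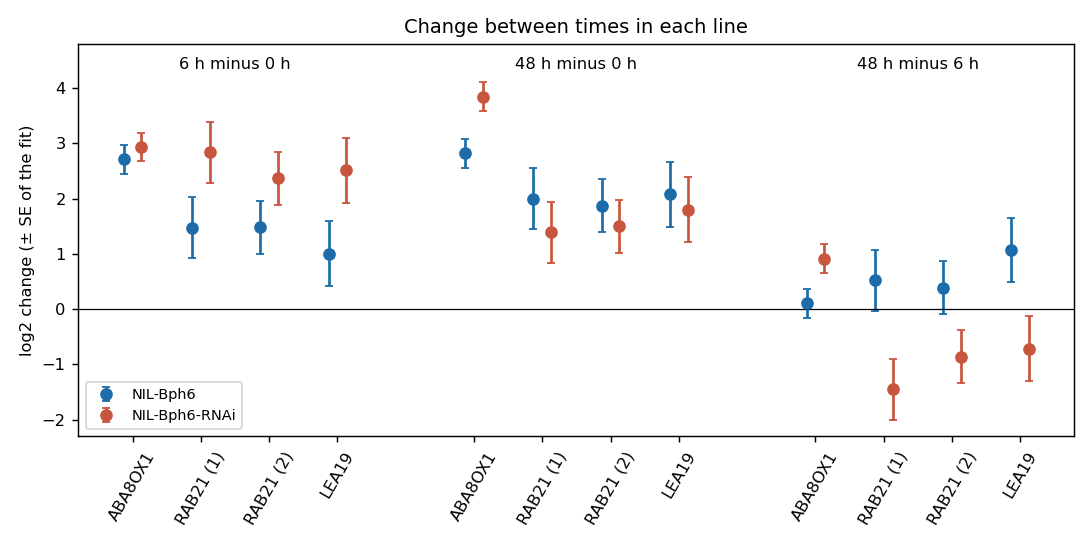
Log2 change between times (vertical axis, points with ± SE of the fit, n = 3 per group) of ABA8OX1, the first (1) and second (2) RAB21 probe set and LEA19 in each line (colours). The SE pools the spread within all 6 groups. From 6 h to 48 h, NIL-Bph6-RNAi has 0.91 for ABA8OX1 and -1.45, -0.86 and -0.72 for the others, and NIL-Bph6 has values from 0.11 to 1.07.

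At 0 h and 6 h in NIL-Bph6, replicates spread more widely for RAB21 and LEA19 than for ABA8OX1, whose SDs there were 0.16 and 0.34. At 6 h in that line the first RAB21 probe set had an SD of 1.35, and 3.29% of all probe sets had a larger one, the median being 0.21. LEA19 had an SD of 1.43 at 0 h in NIL-Bph6, where 2.57% of probe sets had a larger one. In NIL-Bph6-RNAi at 6 h the same probe sets had SDs of 0.20 and 0.23, below the median of 0.26. At 0 h and 48 h in that line the SDs were 0.39 and 0.48 for RAB21, with 23.5% and 25.4% of probe sets larger. For LEA19 they were 0.66 and 0.27, with 10.7% and 49.7% larger. ABA8OX1 had its widest spread, 0.70, in NIL-Bph6 at 48 h, where 9.39% of probe sets had a larger SD.

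Within groups RAB21 and LEA19 were highest on the same arrays. The array with the highest RAB21 signal in a group was also the highest for LEA19 in 6 of 6 groups, and in 5 of 6 after the arrays were centred on their medians. The lowest array was shared in 4 of 6 groups. For ABA8OX1 the highest and the lowest array matched those of RAB21 in 3 of 6 groups each. Among other dehydration genes the highest array was shared with RAB21 in 4 of 6 groups for RAB16B, 3 for EMP1, 2 for RAB16D and 1 each for RAB16C and RAB25, and in 4, 1 and 5 groups for the 3 probe sets of DHN1. The genes share arrays, so these counts describe the plants and the hybridisations together. The share of all probe sets with the same highest arrays was not computed, so the counts do not set RAB21 and LEA19 apart.

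Of the other genes of abscisic acid breakdown, ABA8OX2 was measured, and ABA8OX3 had no probe set assigned to it. ABA8OX2, a second hydroxylase of the same family, read 8.43, 8.80 and 8.42 in NIL-Bph6 at 0 h, 8.93, 8.85 and 8.72 at 6 h, and 9.27, 10.14 and 9.33 at 48 h. In NIL-Bph6-RNAi it read 8.20, 8.76 and 8.58 at 0 h, 9.15, 8.24 and 8.51 at 6 h, and 8.38, 8.28 and 8.43 at 48 h. All NIL-Bph6 arrays at 48 h lay above all its 0 h arrays and above all NIL-Bph6-RNAi arrays at 48 h.

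ABA8OX2 rose in NIL-Bph6 at 48 h by 1.03 ± 0.24 (limma adjusted p = 0.00828), and was higher there than in NIL-Bph6-RNAi by 1.21 ± 0.24 (limma adjusted p = 0.00386). In NIL-Bph6-RNAi its 48 h change was -0.15 ± 0.24 (limma adjusted p = 0.691). The change to 48 h differed between lines by 1.18 ± 0.34 (limma adjusted p = 0.0369). That last call ended in 11 of 21 alternatives, with adjusted p up to 0.105. Leaving out 8 of the 12 arrays singly ended it: NIL-Bph6 0 h replicates 1 (adjusted p = 0.0797) and 3 (0.0852), NIL-Bph6 48 h replicate 2 (0.0722), NIL-Bph6-RNAi 0 h replicates 2 (0.105) and 3 (0.073), and NIL-Bph6-RNAi 48 h replicates 1 (0.0518), 2 (0.0625) and 3 (0.0656). For the other hydroxylase, ABA8OX1, the difference of the same responses was -1.03, a description.

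Of 4 listed genes of abscisic acid synthesis 2 were measured, and neither passed the test in any of the 9 contrasts. ABA1, a zeaxanthin epoxidase gene, changed by -0.48 ± 0.17 at 6 h (limma adjusted p = 0.11) and -0.31 ± 0.17 at 48 h in NIL-Bph6, and by -0.02 and 0.25 in NIL-Bph6-RNAi. MCSU3, which encodes a sulfurase of the molybdenum cofactor that the last enzyme of the pathway needs, had changes of -0.32, -0.43, 0.24 and 0.09 in the same order. NCED3, a gene of the rate-limiting dioxygenase, had no probe set assigned to it.

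Of 20 listed receptors, phosphatases and kinases 18 were measured. In NIL-Bph6, 2 were higher and 0 lower at 6 h, and 3 higher and 0 lower at 48 h. In NIL-Bph6-RNAi, 0 passed in either direction at 6 h by limma, and 7 were higher and 1 lower at 48 h. The share called was 11.1% at 6 h and 16.7% at 48 h in NIL-Bph6, beside 5.12% and 15.7% of all probe sets, and 44.4% at 48 h in NIL-Bph6-RNAi, beside 33.3%. The NIL-Bph6 share at 48 h is thus near the background. Median changes were -0.04, 0.13, 0.10 and 0.40 in that order, beside -0.03, 0.00, 0.02 and 0.01 over all probe sets. At 48 h in NIL-Bph6-RNAi the phosphatase genes PP2C68 and PP2C30 rose by 1.25 ± 0.31 (limma adjusted p = 0.00524) and 1.12 ± 0.25 (limma adjusted p = 0.00252). The kinase gene SAPK2 rose by 0.98 ± 0.12 (limma adjusted p = 1.82e-05) and the receptor gene PYL5 by 0.85 ± 0.10 (limma adjusted p = 1.2e-05). SAPK10, another SnRK2 kinase gene, fell by 0.56 there (limma adjusted p = 0.00591). Of these 8 calls, that of PP2C08 (0.83, limma adjusted p = 0.0325) ended in 7 of 15 alternatives, among them leaving out NIL-Bph6-RNAi 48 h replicate 3 (0.116) or 1 (0.097), or 0 h replicate 1 (0.0608), 2 (0.0942) or 3 (0.0633).

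In NIL-Bph6, SAPK2 rose by 0.62 ± 0.12 at 6 h (limma adjusted p = 0.00629), a call kept in all 15 alternatives. PYL5 rose by 0.35 ± 0.10 at 6 h (limma adjusted p = 0.0478), a call that ended in 10 of 15 alternatives, with adjusted p up to 0.159 without NIL-Bph6 0 h replicate 1, and the omission of 0 h replicate 2 (0.132) or of 6 h replicate 1 (0.0878), 2 (0.138) or 3 (0.128) also ended it. At 48 h PP2C68 rose by 1.07 ± 0.31 (limma adjusted p = 0.0263), PP2C30 by 0.89 ± 0.25 (limma adjusted p = 0.0219) and PYL5 by 0.32 ± 0.10 (limma adjusted p = 0.0369). Without NIL-Bph6 48 h replicate 2, PP2C68 stood at 0.68 (0.143), PP2C30 at 0.59 (0.121) and PYL5 at 0.33 (0.0776). PP2C68 was also lost without 0 h replicate 2 (0.121), PP2C30 without 0 h replicate 1 (0.067) or 3 (0.0511) or 48 h replicate 3 (0.0619), and PYL5 without 0 h replicate 1 (0.133) or 2 (0.143) or 48 h replicate 1 (0.0699) or 3 (0.107). With the compared groups alone in the fit, the limma adjusted p of these 48 h changes was 0.102 for PP2C68, 0.0796 for PP2C30 and 0.167 for PYL5.

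Between the lines at 48 h, 3 of the 18 genes were called lower and 1 higher in NIL-Bph6, or 22.2% beside 13.6% of all probe sets. PYL5 differed by -0.58 ± 0.10 (limma adjusted p = 0.00149), SAPK1 by -0.57 ± 0.14 (limma adjusted p = 0.0111), SAPK2 by -0.53 ± 0.12 (limma adjusted p = 0.00729) and SAPK4 by 0.36 ± 0.10 (limma adjusted p = 0.0229). The call of SAPK1 was lost without NIL-Bph6 48 h replicate 1 (0.0545), and that of SAPK2 with the compared groups alone in the fit (0.0639). That of SAPK4 was lost without NIL-Bph6 48 h replicate 1 (0.0912) or 2 (0.0566), without NIL-Bph6-RNAi 48 h replicate 1 (0.0528), 2 (0.0628) or 3 (0.0525), and with median centring (0.26, adjusted p = 0.114).

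The bZIP factor genes TRAB1 and BZIP23 were measured, and VP1, a seed regulator, did not pass the filter. TRAB1 and BZIP23 both rose at 48 h in NIL-Bph6-RNAi, where 33.3% of all probe sets were called. The rise was 0.75 ± 0.11 for TRAB1 (limma adjusted p = 9.25e-05) and 0.72 ± 0.16 for BZIP23 (limma adjusted p = 0.00246). Neither passed in the other 3 changes from 0 h, where TRAB1 had -0.02 and 0.32 in NIL-Bph6, with 0.21 for NIL-Bph6-RNAi, and BZIP23 had 0.51, 0.38 and 0.07. The difference of their 48 h responses between the lines did not pass either, at -0.44 (limma adjusted p = 0.082) and -0.34 (limma adjusted p = 0.368).

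**Figure D3:**
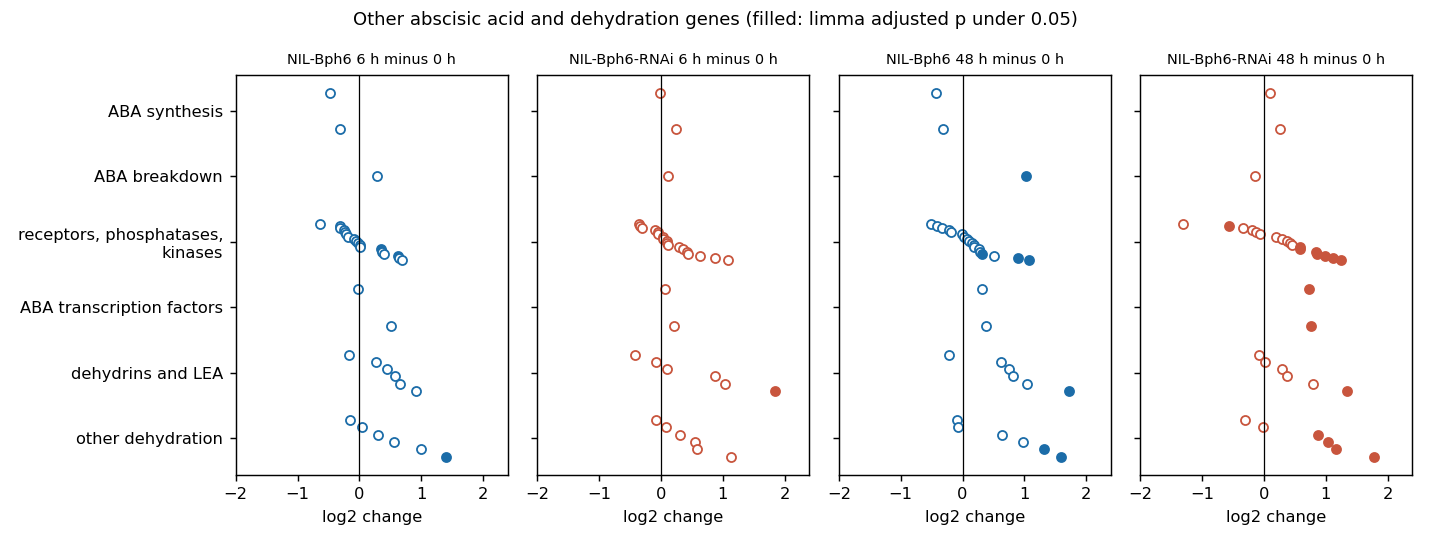
Log2 change from 0 h (horizontal axis) of the listed abscisic acid and dehydration genes other than ABA8OX1, RAB21 and LEA19, by list (vertical axis) in 4 panels for line and time. Each point is a gene, filled where the limma adjusted p is under 0.05. At 48 h in NIL-Bph6-RNAi 7 of 18 receptor, phosphatase and kinase genes are filled to the right and 1 to the left, against 3 and 0 in NIL-Bph6.

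Among the other dehydrins and late embryogenesis abundant proteins, 6 of 7 listed genes were measured. Of these, 0 passed at 6 h in NIL-Bph6 by limma, and 1 was higher in each of the other 3 changes from 0 h, with 0 lower. A single call is 16.7% of the list, beside 15.7% of all probe sets at 48 h in NIL-Bph6 and 5.3% and 33.3% at 6 h and 48 h in NIL-Bph6-RNAi. The median change was 0.51 at 6 h and 0.79 at 48 h in NIL-Bph6, and 0.49 and 0.33 in NIL-Bph6-RNAi. DHN1, an acidic dehydrin gene with a high signal, rose at 48 h in NIL-Bph6-RNAi by 1.34 ± 0.28 (limma adjusted p = 0.00153), with 0.88 at 6 h (limma adjusted p = 0.0772). In NIL-Bph6 its changes were 0.45 and 0.62. Both of its dimmer probe sets, with group means from 4.94 to 6.07, did not follow the bright one, which was used here.

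RAB21 is the last of a run of 6 neighbouring genes on chromosome 11 that holds 4 genes of the RAB16 dehydrin family, in the order RAB16D, RAB16C, 2 unnamed genes, RAB16B and RAB21. RAB16B, the nearest of them, read 6.80, 6.95 and 5.53 at 0 h in NIL-Bph6-RNAi, 7.88, 8.32 and 8.61 at 6 h, and 7.15, 5.96 and 7.04 at 48 h. In NIL-Bph6 it read 6.69, 6.23 and 6.85 at 0 h, 8.23, 7.25 and 7.05 at 6 h, and 7.79, 9.10 and 8.04 at 48 h. The 6 h arrays of NIL-Bph6-RNAi lay above all its 0 h and 48 h arrays, and the 48 h arrays of NIL-Bph6 above all its 0 h arrays and all 48 h arrays of the other line.

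RAB16B rose in NIL-Bph6-RNAi at 6 h by 1.84 ± 0.44 (limma adjusted p = 0.0234) and in NIL-Bph6 at 48 h by 1.72 ± 0.44 (limma adjusted p = 0.0134). At 48 h its level in NIL-Bph6 exceeded that of NIL-Bph6-RNAi by 1.59 ± 0.44 (limma adjusted p = 0.0239). Each of these calls was lost on leaving out single arrays. For the 6 h rise they were NIL-Bph6-RNAi 0 h replicate 3 (1.40, adjusted p = 0.107) and 6 h replicates 2 (1.82, 0.0553) and 3 (1.67, 0.0902), and for the 48 h rise NIL-Bph6 0 h replicate 2 (1.54, 0.0552) and 48 h replicate 2 (1.32, 0.077). For the line difference they were NIL-Bph6 48 h replicate 2 (1.20, 0.104) and NIL-Bph6-RNAi 48 h replicate 2 (1.22, 0.102). Where family members share sequence, their probe sets may share signal, which was not tested.

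RAB16C and RAB16D had no call in any change from 0 h. RAB16C lay between 7.05 and 9.05 on all arrays, and its 6 h and 48 h changes were -0.17 and -0.21 for NIL-Bph6, then -0.08 and 0.02 for NIL-Bph6-RNAi. RAB16D had group means from 4.26 to 5.76, below the filter level of 5.78, with changes of 0.65, 1.05, -0.42 and -0.09 and an SE of 0.96. EMP1, an Em protein gene of the late embryogenesis abundant class, changed by 0.26 and 0.75 in NIL-Bph6 and by 1.04 and 0.37 in NIL-Bph6-RNAi, the largest of these with a limma adjusted p of 0.116. RAB25 changed by 0.57, 0.82, 0.09 and 0.79 in the same order, with none past the test.

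**Figure D4:**
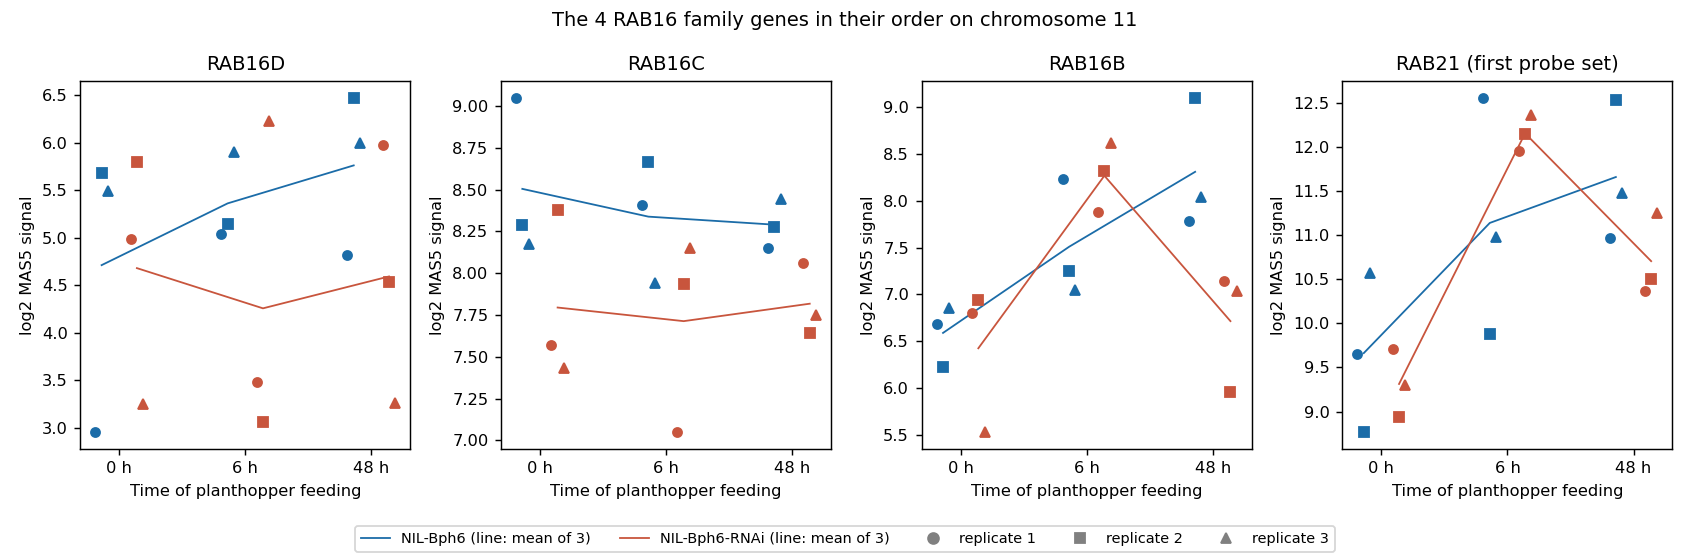
The RAB16 family genes RAB16D, RAB16C and RAB16B and the first RAB21 probe set, left to right in their order on chromosome 11, as log2 MAS5 signal (vertical axes, which differ between panels) by hours of feeding. Points are arrays and lines join the means of 3. RAB16B and RAB21 have their highest mean at 6 h in NIL-Bph6-RNAi and at 48 h in NIL-Bph6, where 6 h and 48 h arrays overlap, and RAB16C lies between 7.05 and 9.05.

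Of 6 other dehydration response genes, 1 was higher at 6 h and 2 at 48 h in NIL-Bph6, and 0 at 6 h and 4 at 48 h in NIL-Bph6-RNAi, with 0 lower by limma. At 6 h these are 16.7% and 0% of the list, beside 5.12% and 5.3% of all probe sets. At 48 h these are 33.3% and 66.7% of the list, beside 15.7% and 33.3% of all probe sets. TPP1, a trehalose-phosphate phosphatase gene, rose at 48 h by 1.78 ± 0.35 in NIL-Bph6-RNAi (limma adjusted p = 0.000953) and by 1.59 ± 0.35 in NIL-Bph6 (limma adjusted p = 0.00505). Its rise of 1.40 ± 0.35 at 6 h in NIL-Bph6 (limma adjusted p = 0.028) was lost without 0 h replicate 1 (0.07), 2 (0.0603) or 3 (0.0808), or 6 h replicate 1 (0.131) or 3 (0.0768). SALT, a salt-inducible lectin gene, rose at 48 h by 1.32 ± 0.26 in NIL-Bph6 (limma adjusted p = 0.00259) and by 1.04 ± 0.26 in NIL-Bph6-RNAi (limma adjusted p = 0.0058). The transcription factor genes NAC2 and DREB2A rose at 48 h in NIL-Bph6-RNAi by 1.16 ± 0.21 (limma adjusted p = 0.00059) and 0.87 ± 0.27 (limma adjusted p = 0.0204). The call of DREB2A was lost without NIL-Bph6-RNAi 0 h replicate 3 (0.08) or 48 h replicate 1 (0.0781). P5CS1 and P5CS2, of proline synthesis, had no call, with 48 h changes of -0.09 and 0.98 in NIL-Bph6.

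The genes nearest to each profile were sought among 16404 genes by the root mean square difference of 6 group means, each centred on its own mean. Nearest to ABA8OX1 were JAZ13 (LOC4348531), a repressor of jasmonate signalling, at 0.14, the unnamed LOC4326919 at 0.17, BC1L9, a COBRA-like protein gene, at 0.19, and TPP7, a trehalose-phosphate phosphatase gene, and CDKE-1, a cyclin-dependent kinase gene, both at 0.23. JAZ13 had group means of 9.27, 12.32 and 12.37 in NIL-Bph6 and of 9.0, 12.21 and 12.93 in NIL-Bph6-RNAi at 0 h, 6 h and 48 h. Nearest to the first RAB21 probe set were LOC4326740 at 0.20, LOC4351190 at 0.33, LOC4337748 and LOC4334663 at 0.37, and PM19L1 (LOC4338635), a membrane protein gene, at 0.38. Nearest to the second were LOC4326740 at 0.22, LOC4342991 at 0.25, DREB1E (LOC4336721), a transcription factor gene, and LOC4334663 at 0.27, and LOC4325023 at 0.28. Nearest to LEA19 were LOC4344298 at 0.19, LOC4334663 at 0.24, LOC4342991 at 0.26, and LOC4326347 and LOC4339101 at 0.28. LOC4334663 was thus among the 5 nearest of LEA19 and of both RAB21 probe sets. These genes were picked for their likeness and share all arrays, so their profiles are descriptions. At 0 h, LOC4326740, LOC4351190, LOC4337748 and PM19L1 had means below the filter level in both lines. In NIL-Bph6 these means were 4.47, 4.21, 4.23 and 3.54, with SDs of 1.84, 2.49, 1.11 and 1.82 in that order. In NIL-Bph6-RNAi the means were 4.03, 4.92, 4.68 and 3.67. The 0 h levels of these genes, and so their distances to RAB21, are imprecise.

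**Figure D5:**
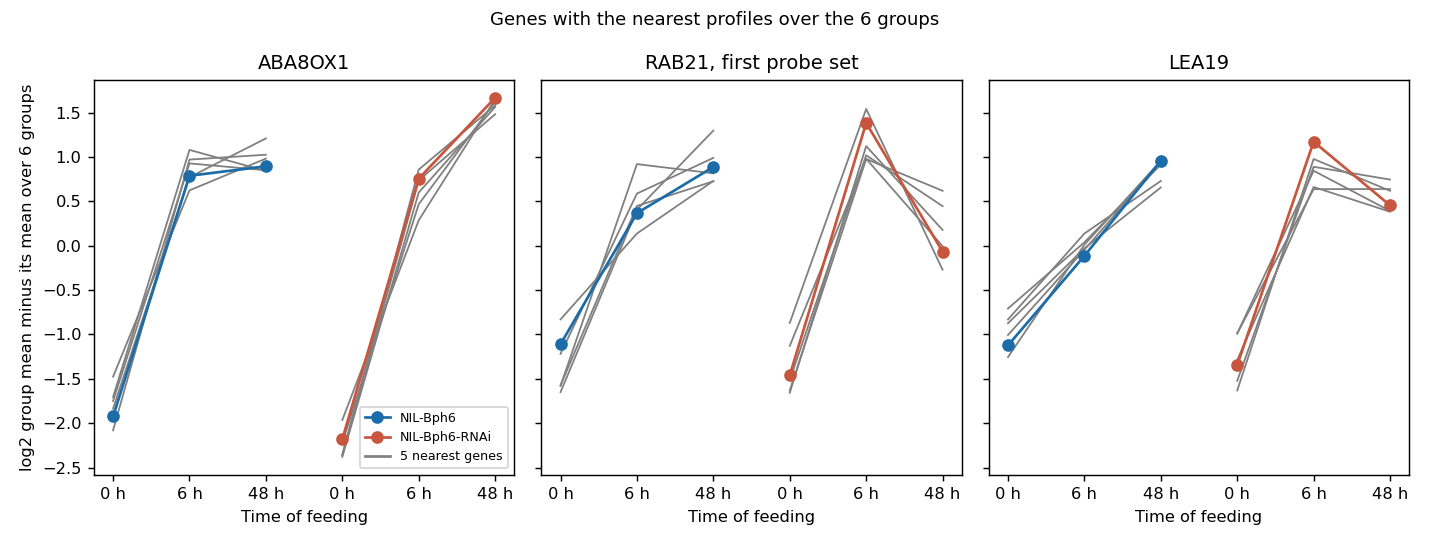
Group means of log2 signal, each profile centred on its mean over 6 groups (vertical axis), by hours of feeding in each line (horizontal axis), for ABA8OX1, the first RAB21 probe set and LEA19 (colours) and the 5 genes nearest to each (grey). The 5 nearest lie within 0.23 of ABA8OX1, 0.38 of RAB21 and 0.28 of LEA19 in root mean square log2 difference.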

How the data were processed

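The deposited values are log2 MAS5 signals, the tool being named without a version in the submitters' processing notes. Per the deposited values, each array was scaled to a trimmed mean between 500.067 and 500.079, array medians lay between 5.67 and 6.02, and 270 to 701 probe sets per array were at 0. No source used here states further steps. After removal of 123 control probe sets, 32732 of 57258 with at least 3 arrays above the overall median of 5.78 were tested. R 4.3.3 and limma 3.58.1 fitted group means to the 18 arrays jointly, moderating variances along an intensity trend, for 9 contrasts, each with Benjamini-Hochberg adjustment over all probe sets tested. Python 3.11.15, pandas 2.3.3, numpy 2.4.6 and matplotlib 3.10.9 served for descriptions and figures. Precision is limited by the number of arrays.

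Annotation assigned 1 gene to 22436 probe sets, more than that to 95, and left 34850 unnamed. Pathway genes were matched by symbol or synonym alone, with the probe set of the highest mean per gene. Named were the members, up to 4 called genes of the largest change per list and contrast, every measured dehydrin and breakdown gene, and the 5 nearest profiles. Further list genes were named after their values were seen. Members and lists were chosen with earlier results of these data known. No pairing by replicate number was seen: the correlation of same-numbered deviations lay between -0.252 and 0.097 in 21 pairs, with 0 over 0.1. Such correlations cannot show how plants or arrays were batched. Alternatives covered quantile normalization, median centring, 2 other filters, an offset of 16, no trend, a 3' to 5' covariate, a replicate block, the compared groups alone and leaving out each array. Tested on simulated data for NIL-Bph6 at 6 h, the fit on 33497 probe sets recovered 41 of 100 log2 changes of 1 and 66 of 100 of 2, with 5 false calls. The simulation drew independent normal noise with the same SD in every group and changed no other probe set. In the real contrast 1675 probe sets were called and spreads differed between groups, so these rates need not hold for it.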

Additional observations from a re-analysis of the deposited data

Results flagged for a closer look

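The change from 0 h to 48 h differed between the lines by limma's test of the difference itself for 4 of 35 listed genes tested, or 11.4%. This is near the background, since 11.2% of all probe sets were called in the same test. ABA8OX2, an abscisic acid hydroxylase gene, differed by 1.18 ± 0.34 on the log2 scale (NIL-Bph6 minus NIL-Bph6-RNAi, limma adjusted p = 0.0369). That call ended in 11 of 21 alternatives, with adjusted p up to 0.105 without NIL-Bph6-RNAi 0 h replicate 2. PYL5, an abscisic acid receptor gene, differed by -0.54 ± 0.14 (limma adjusted p = 0.0209), with adjusted p of 0.0614 without NIL-Bph6-RNAi 0 h replicate 2 and 0.0611 without NIL-Bph6-RNAi 48 h replicate 3. SAPK2, an SnRK2 kinase gene, differed by -0.70 ± 0.17 (limma adjusted p = 0.0153), a call kept in all 21 alternatives. SAPK6, another SnRK2 kinase gene, differed by -0.77 ± 0.20 (limma adjusted p = 0.0199), with adjusted p of 0.0516 without NIL-Bph6 0 h replicate 3, 0.0602 without NIL-Bph6 48 h replicate 3, 0.0645 without NIL-Bph6-RNAi 0 h replicate 2 and 0.0554 without NIL-Bph6-RNAi 48 h replicate 3.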

How the results depend on the processing

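The tested 6 h rise of ABA8OX1 in NIL-Bph6 kept its direction and call in all 15 alternatives, with 2.53 to 2.86 on the log2 scale when single arrays were left out. RAB21 in the same contrast ranged from 0.77 to 2.10 and from 0.89 to 1.99 for its probe sets, and passed only without NIL-Bph6 6 h replicate 2. With the replicate block, adjusted p were 0.000227 for ABA8OX1 and 0.144 and 0.0827 for RAB21, and the block changed none of these 3 calls and no count by over 1.5 times. Of 36 calls of listed genes, 20 were kept in every alternative, 16 ended in at least 1 and 0 reversed. With the 3' to 5' covariate the counts of called probe sets were 1086 for NIL-Bph6-RNAi at 6 h, 177 between lines at 0 h, and 0 and 1796 for the differences of responses at 6 h and 48 h. With the compared groups alone they were 294 and 2914 between lines at 0 h and 48 h and 5 for the difference at 6 h, which had 0 without the trend. The cause was not tested. The difference at 6 h had 2 calls in the reported fit by limma and 4898 probe sets at an unadjusted p under 0.05. Leaving out single arrays gave 794 to 1415 calls in NIL-Bph6 at 6 h and 3351 to 5280 at 48 h, the lowest of both without 0 h replicate 1. In NIL-Bph6-RNAi it gave 669 (without 0 h replicate 2) to 1497 at 6 h and 8189 to 10319 at 48 h. Between lines it gave 225 (replicate 2 of NIL-Bph6-RNAi at 0 h left out) to 853 (replicate 2 of NIL-Bph6 at 0 h) at 0 h, 179 (replicate 2 of NIL-Bph6 at 6 h) to 232 at 6 h, and 2592 (without NIL-Bph6-RNAi 48 h replicate 3) to 3989 at 48 h. For the differences of responses it gave 0 to 53 at 6 h, the highest when replicate 2 of NIL-Bph6 at 0 h was left out, and 1651 (replicate 2 of NIL-Bph6-RNAi at 0 h) to 4755 at 48 h. Median centring moved the calls from 1152 higher and 523 lower to 1040 and 730 in NIL-Bph6 at 6 h, from 2677 and 2447 to 2238 and 3100 at 48 h, and from 1210 and 526 to 882 and 775 in NIL-Bph6-RNAi at 6 h. Signals near the filter level, such as those of RAB16D, are imprecise.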
